A study of Mus musculus with 43 samples.

Results

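Son siRNA was compared with control siRNA in mouse embryonic fibroblasts (MEF) that received tunicamycin, with 4 libraries a side. Of 24327 gene symbols in the table, 10883 had a mean of at least 1 FPKM (fragments for each kilobase of transcript, relative to the mapped total) over the 16 siRNA libraries and were tested. Polyadenylated RNA was sequenced from 4 groups of 4 libraries, which were Son siRNA with tunicamycin, control siRNA with tunicamycin, Son siRNA with the solvent DMSO, and control siRNA with DMSO. All 4 groups thus received a siRNA, and the labels name the cell line only as MEF, with embryonic fibroblast as the cell type. Neither the dose nor the length of the tunicamycin treatment is given in the sources used here. Usp35 and Tsacc, at 1.00029 and 1.00036 FPKM, stood just inside the level needed for a test, and Cep112 and Nlrx1, at 0.999 and 0.996 FPKM, just outside it.

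Son is a scaffold of nuclear speckles, the nuclear bodies that hold splicing factors. It binds RNA and DNA and helps the spliceosome to remove introns, in particular those with weak splice sites. Tunicamycin blocks the first step of N-glycan assembly, so that glycoproteins misfold in the endoplasmic reticulum (ER). Cells answer through the sensors IRE1, PERK and ATF6, whose transcription factors XBP1, ATF4 and cleaved ATF6 raise chaperones, ER-associated degradation, amino acid synthesis and, with lasting stress, CHOP. Both groups compared here were under this stress, so the comparison shows the effect of Son siRNA among cells that received tunicamycin. The labels do not say whether libraries of a group came from separate cultures, and p-values then measure only the spread between these samples.

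The 8 tunicamycin libraries had summed FPKM of 393764 to 408748. The first principal component, with 45.4% of the variance among them, held all 4 Son siRNA libraries on one side and all 4 control siRNA libraries on the other. The second, with 13.9%, set library D of control siRNA apart, at 14.2 against −7.38 to −3.01 for the other control siRNA libraries. Library D of control siRNA was high in ER stress genes and low in interferon and matrix genes, so the medians of the ER, interferon, amino acid and matrix glycoprotein lists are given with and without it, as are single genes whose called change moved by over 1.5 times. Of 13 fibroblast markers 9 were tested, among them Col1a1 (541 ± 31.7 FPKM with Son siRNA and 498 ± 39.9 FPKM with control siRNA; errors of levels are SD, n = 4), while Thy1 and Lum stood below 0.1 FPKM. Col1a2 (0.580 FPKM with Son siRNA and 0.579 FPKM with control siRNA) and Pdgfra (0.769 and 0.592 FPKM) were not tested either. The sum of the 13 fibroblast markers ran from 2268 to 2407 FPKM with Son siRNA and from 1895 to 2349 FPKM with control siRNA. The macrophage markers Adgre1 and Aif1 were listed at 0 in all 8 libraries and Ptprc reached at most 0.00587 FPKM. The endothelial markers Tie1, Emcn and Cldn5, the muscle markers Myod1 and Myog and the adipocyte markers Adipoq and Plin1 were listed at 0 as well. Of 10 epithelial markers 2 were tested, Krt19 (36.9 FPKM with Son siRNA and 37.0 FPKM with control siRNA) and Krt18 (10.2 and 9.48 FPKM). The sums of the epithelial list ran from 46.0 to 50.1 FPKM with Son siRNA and from 36.6 to 51.6 FPKM with control siRNA. Of 12 macrophage markers 2 were tested, and the sum of the list ran from 8.14 to 8.94 FPKM with Son siRNA and from 9.87 to 11.7 FPKM with control siRNA, through Cd68, which was lowered (−0.48), and Cd14. Of 8 adipocyte markers 2 were tested, with sums from 14.1 to 15.7 FPKM with Son siRNA and from 9.67 to 13.1 FPKM with control siRNA, through Fabp4, which was raised (0.40), and Pparg. The sums of 10 endothelial markers ran from 1.51 to 2.05 FPKM with Son siRNA and from 1.07 to 1.23 FPKM with control siRNA, and those of 10 neural markers from 42.7 to 46.4 FPKM with Son siRNA and from 37.2 to 42.1 FPKM with control siRNA. The macrophage, adipocyte, endothelial and neural sums did not overlap between the groups, and their part in the results was not tested. In bulk RNA, fewer cells of a type and less RNA per cell cannot be told apart.

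Son itself was measured first as a check of the labels. Son (chromosome 16, 91647506 to 91679221, mm10) had 15.1, 15.8, 16.8 and 14.1 FPKM with Son siRNA, against 36.5, 35.02, 37.01 and 35.5 FPKM with control siRNA, the 4 values of a group being those of libraries A to D here and in all that follows. The groups did not overlap, and the mean with Son siRNA was 0.429 of that with control siRNA (log2 fold change −1.17, SE 0.043, adjusted p = 3.11e-11). Fold changes are Son siRNA over control siRNA on the log2(FPKM + 1) scale, on which changes of genes at low FPKM look smaller than they are. In DMSO the same siRNA left 20.8, 21.6, 23.1 and 21.5 FPKM, against 42.6, 43.1, 44.9 and 43.3 FPKM with control siRNA (−0.97). The difference of both effects did not pass the test (−0.21, SE 0.060, adjusted p = 0.0831).

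Genes of the nuclear speckle were raised and lowered in shares near those of all genes. Of 24 tested genes of this list 9 were raised and 4, Son included, were lowered, with a median log2 fold change of 0.056 (0.032 without library D of Son siRNA). Over all tested genes 30.6% were raised, 20.4% were lowered and the median was 0.039, and in 42.9% the 4 libraries of one group all lay above those of the other. Raised and lowered mean called by limma at an adjusted p under 0.05. Srrm2, the other large scaffold protein of speckles, had 67.4, 65.7, 69.3 and 64.9 FPKM with Son siRNA, against 57.3, 56.9, 56.9 and 55.7 FPKM with control siRNA (log2 fold change 0.23, SE 0.030, adjusted p = 7.47e-06). All 4 Son siRNA libraries lay above all control siRNA libraries for Srrm2. Ddx39b, an RNA helicase of splicing and mRNA export, had 106, 105, 108 and 104 FPKM with Son siRNA, against 129.5, 129.97, 130.03 and 136 FPKM with control siRNA (−0.31, SE 0.025). Sart1, a protein of the U4/U6.U5 small nuclear ribonucleoprotein, fell to 21.1 ± 0.448 FPKM with Son siRNA, against 25.2 ± 1.02 FPKM with control siRNA (−0.24, SE 0.030). Both genes were lower in every Son siRNA library than in any control siRNA library.

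Kinases that phosphorylate SR splicing factors moved in both directions. Clk2, one of the CDC2-like kinases of speckles, had 8.45, 7.73, 8.07 and 6.702 FPKM with Son siRNA, against 11.7, 11.4, 12.3 and 11.9 FPKM with control siRNA (log2 fold change −0.56, SE 0.058, adjusted p = 7.75e-07). Its relatives Clk1 (0.18) and Clk4 (0.17) were raised, so the 3 called members of this small family did not move together. Dyrk3, a kinase that dissolves speckles and other condensates, rose to 9.39 ± 0.429 FPKM with Son siRNA, against 7.25 ± 0.459 FPKM with control siRNA (0.33, SE 0.051). Of 12 SR factors 4 were raised and none was lowered by limma (0 at an unadjusted p under 0.05), with Srsf4 furthest at 0.22 (SE 0.030).

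Neat1, the long non-coding RNA on which paraspeckles are built, was lower with Son siRNA. Neat1 (chromosome 19, 5824708 to 5845478) had 29.4, 31.1, 35.5 and 26.4 FPKM with Son siRNA, against 76.01, 68.8, 69.1 and 59.1 FPKM with control siRNA (log2 fold change −1.13, SE 0.093, adjusted p = 5.66e-08). Every Son siRNA library stood below every control siRNA library, and the lowest control siRNA library was D. Of 15 paraspeckle genes 4 were raised and 3, Neat1 included, lowered, near the shares over all genes (median 0.048, 0.029 without library D of control siRNA). Among the proteins that join this RNA, Pspc1 fell (−0.25, SE 0.034) while Rbm14 (0.27, SE 0.037) and Rbmx (0.28, SE 0.032) rose. Malat1, a speckle-associated long non-coding RNA that lies next to Neat1, had 18.8, 19.8, 20.1 and 15.6 FPKM with Son siRNA, against 25.4, 24.1, 23.8 and 16.98 FPKM with control siRNA. Its groups overlapped through control siRNA library D and the test was missed (−0.26, adjusted p = 0.0947), but it was passed without that library (−0.38, adjusted p = 0.00978).

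**Figure D1:**
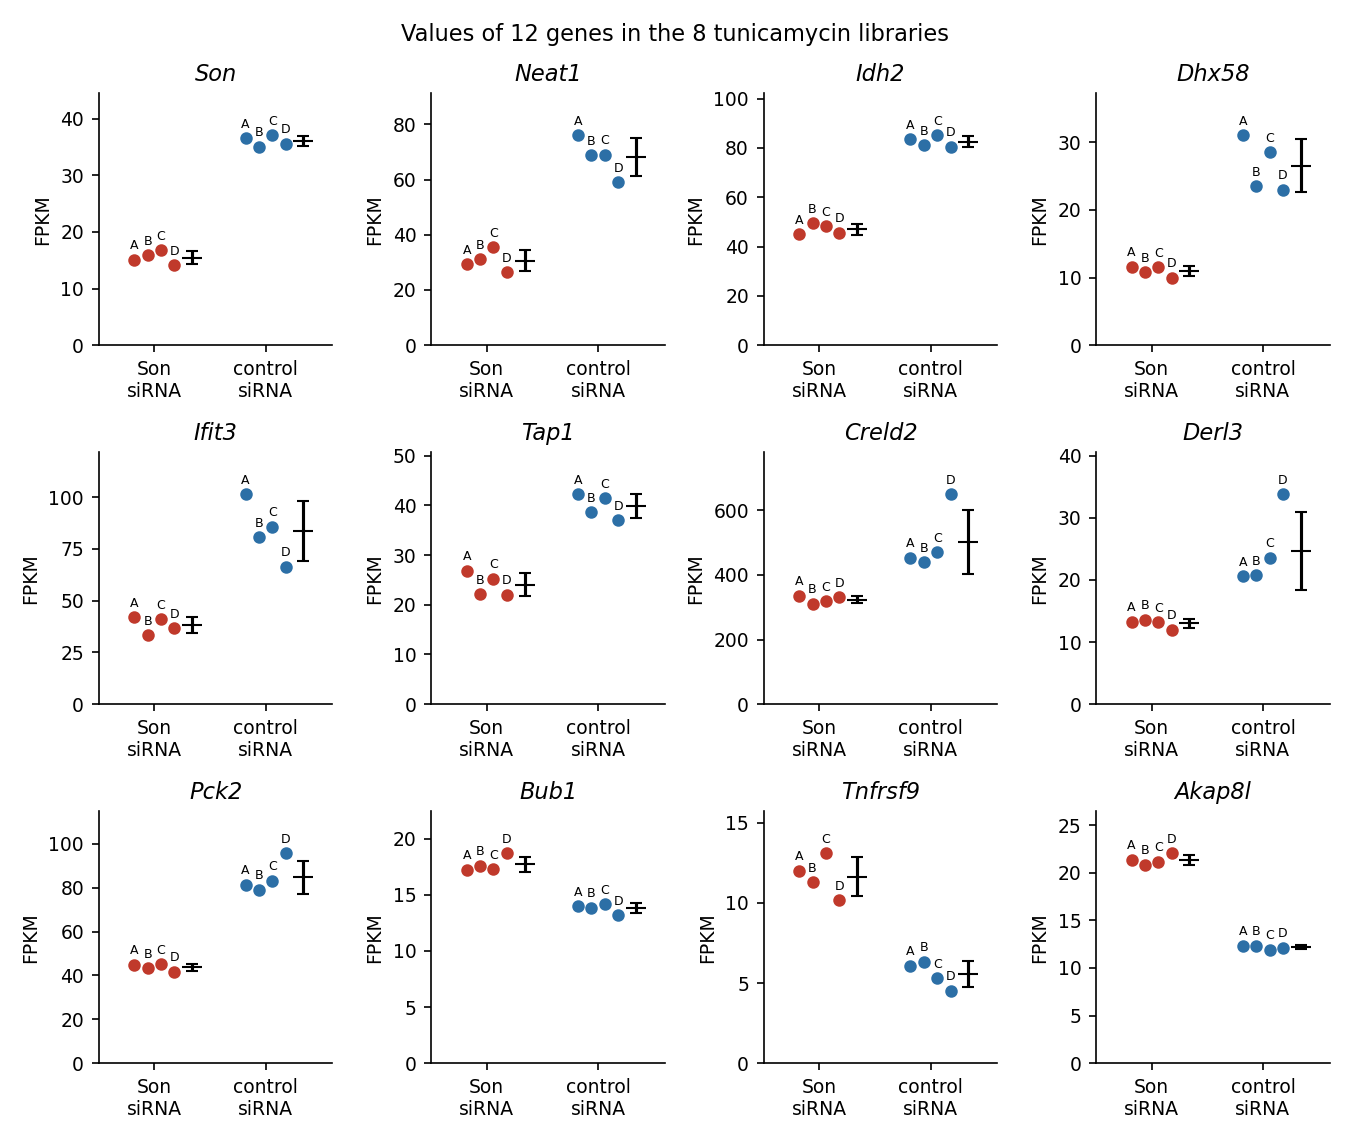
FPKM of 12 genes in the 4 Son siRNA libraries (red, left) and the 4 control siRNA libraries (blue, right) in tunicamycin, with library letters. Each axis starts at 0 and the black marks are the mean and SD of 4 libraries. Son, Neat1, Idh2 and the interferon genes lie lower with Son siRNA in every library, and library D of control siRNA is the highest for Creld2, Derl3 and Pck2.

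Many genes moved a little and few moved far. Of 10883 genes 51.0% were called, and the median size of a called change was 0.196 on the log2 scale. A change of at least 2-fold on this scale was called for 11 genes, 4 raised and 7 lowered. Without library D of control siRNA 3127 genes (28.7%) were raised and 2171 (19.9%) lowered, against 3328 and 2224 with all libraries. Raised genes made up 59.9% of the calls, and 52.2% after scaling each library by its median ratio.

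Tnfrsf9, a costimulatory receptor of the TNF receptor family also called 4-1BB, led the rises among the genes named by rule. The strongest rises and falls so named were required to have at least 5 FPKM in the higher group and groups that do not overlap. They also had to keep their call whichever tunicamycin library was left out. Tnfrsf9 (chromosome 4, 150914562 to 150946102) had 12.01, 11.3, 13.1 and 10.2 FPKM with Son siRNA, against 6.09, 6.33, 5.31 and 4.53 FPKM with control siRNA (log2 fold change 0.95, SE 0.085, adjusted p = 1.63e-07; 0.87 without control siRNA library D). Next came the F-box gene Fbxo17 with 7.38, 7.604, 6.997 and 8.61 FPKM with Son siRNA, against 4.38, 3.65, 4.11 and 3.85 FPKM with control siRNA (0.79, SE 0.053). Akap8l, a nuclear protein related to the A-kinase anchor protein AKAP8, had 21.4, 20.8, 21.2 and 22.02 FPKM with Son siRNA, against 12.3, 12.3, 11.9 and 12.1 FPKM with control siRNA (0.76, SE 0.035). The lowest Son siRNA value of Akap8l lay well above the highest control siRNA value. Fnbp4, which binds formins, rose to 22.7 ± 0.665 FPKM with Son siRNA, against 13.8 ± 0.444 FPKM with control siRNA (0.69, SE 0.030). Chpf2, an enzyme of chondroitin polymerisation, rose to 20.1 ± 0.588 FPKM, against 11.9 ± 0.526 FPKM (0.71, SE 0.034). Il34, a ligand of the macrophage growth factor receptor CSF1R, rose to 6.23 ± 0.2995 FPKM, against 3.44 ± 0.407 FPKM (0.71, SE 0.076). Rises were also called for the F-box gene Fbxo36 (0.74), the heme-binding protein gene Hebp1 (0.71), the SAGA complex gene Tada1 (0.63), Prr3 (0.60), Chchd6, which takes part in mitochondrial cristae (0.60), Angptl2 (0.61; 0.45 without control siRNA library D) and Oaf (0.60).

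Of the 15 lowered genes of largest change, 9 belong to the interferon response and are given below. The others were Son, Neat1, Pck2, Hap1, Isyna1 and Taz. Hap1, which encodes a huntingtin-associated transport protein, had 19.8, 17.7, 19.02 and 16.3 FPKM with Son siRNA, against 41.8, 36.3, 39.1 and 35.9 FPKM with control siRNA (log2 fold change −1.03, SE 0.064, adjusted p = 3.01e-09). Isyna1, the enzyme that makes inositol phosphate for inositol synthesis, had 15.1, 15.9, 17.3 and 12.8 FPKM with Son siRNA, against 28.2, 29.6, 31.4 and 33.8 FPKM with control siRNA (−0.97, SE 0.069). Taz on chromosome X, which encodes the cardiolipin transacylase tafazzin, had 3.501, 3.91, 3.43 and 3.44 FPKM with Son siRNA, against 7.87, 6.39, 7.96 and 7.88 FPKM with control siRNA (−0.90, SE 0.062). That their groups do not overlap was required by the rule, and all 3 were also lowered in DMSO (−0.90, −0.61 and −0.63).

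The comparisons in tunicamycin and in DMSO share no library, so their effects can be set side by side. Both come from the same fit, with a common variance for each gene, so the calls in the conditions are not independent. Of the 3328 genes raised in tunicamycin 1633 (49.1%) were also raised in DMSO, where 20.0% of all genes were raised, and 8 were lowered there. Of the 2224 genes lowered in tunicamycin 1446 (65.0%) were also lowered in DMSO, where 16.1% of all genes were lowered, and 11 were raised there. Across the 10883 genes the effects correlated with Pearson's r of 0.717 and Spearman's rho of 0.7295, a description across genes, which are not independent replicates. The effect was larger in tunicamycin for the genes lowered there, with a median of −0.26 in tunicamycin and −0.18 in DMSO. These genes were selected on the tunicamycin comparison, which by itself favours the larger value there.

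**Figure D2:**
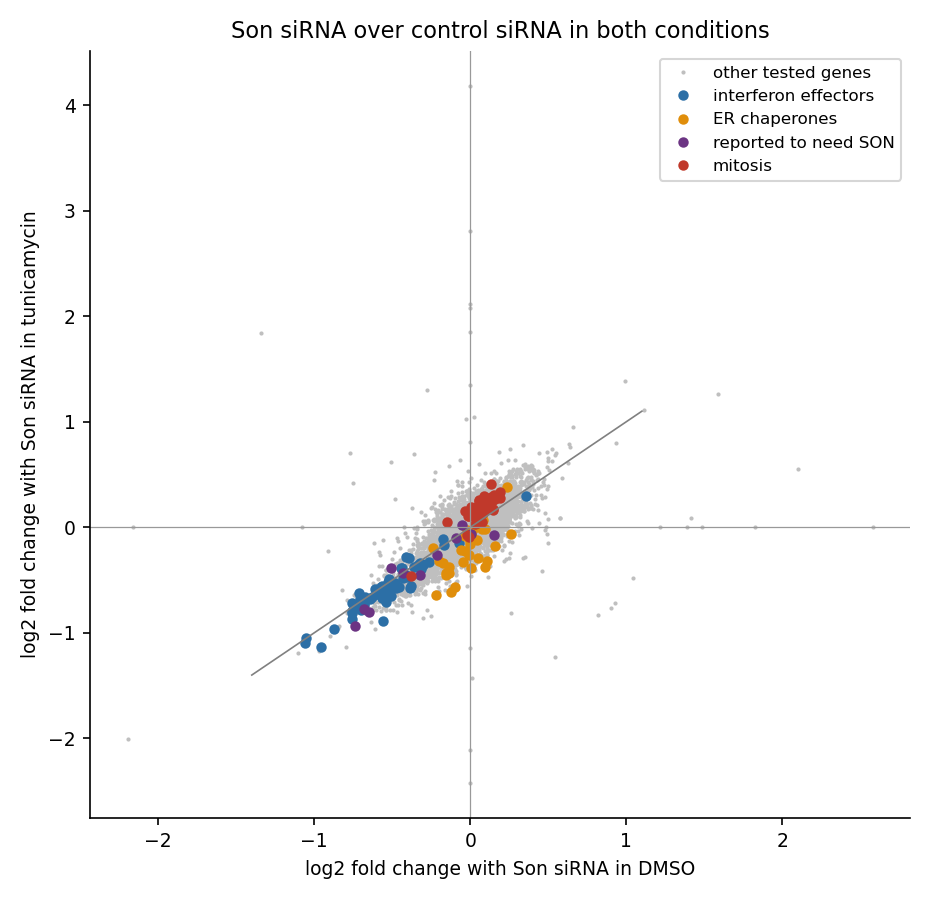
Log2 fold change with Son siRNA over control siRNA in tunicamycin (vertical axis) and in DMSO (horizontal axis) for the 10883 tested genes, with 4 gene lists in colour and the line of equal effects. Nearly all interferon effectors lie to the lower left, lowered in both conditions, while several ER chaperones lie below the line, lower in tunicamycin than in DMSO.

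Genes reported elsewhere to need SON for their splicing were lower. Of 11 such genes 8 were lowered and none was raised by limma (0 at an unadjusted p under 0.05), with a median of −0.38, while 20.4% of all tested genes were lowered. The list comes from earlier reports of genes misspliced or reduced in human cells with little SON. Its members were chosen with earlier results of these data known, so it is no independent check. Idh2, the mitochondrial NADP-dependent isocitrate dehydrogenase, had 44.9, 49.5, 48.2 and 45.5 FPKM with Son siRNA, against 83.5, 81.2, 85.1 and 80.5 FPKM with control siRNA (log2 fold change −0.80, SE 0.031, adjusted p = 3.43e-11). Flna, the actin cross-linker filamin A, had 115, 117, 121 and 116 FPKM with Son siRNA, against 161, 150.1, 163 and 159 FPKM with control siRNA (−0.43, SE 0.032). Acy1, which removes the acetyl group from amino acids, fell to 5.62 ± 0.407 FPKM with Son siRNA, against 8.04 ± 0.371 FPKM with control siRNA (−0.45, SE 0.076). In each of these 3 genes all Son siRNA libraries lay below all control siRNA libraries. Wdr62, Pfkl and Psmd3 of the same list were not called.

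Lowered genes had shorter introns than other genes. Gene structure was read from the longest annotated protein-coding transcript of each symbol (GENCODE, mm10), and the calls were set beside it. The median intron of a gene measured 670 bases at the median of the lowered genes, 1722 bases for raised genes and 1583.5 bases for genes not called. At least 1 intron under 150 bases was annotated in 63.4% of lowered genes, 33.97% of raised genes and 35.8% of genes not called. These shares were not adjusted for the number of exons, whose median was 11 in lowered genes, 9 in raised genes and 8 in genes not called. The median gene span was 15773 bases in lowered genes, 27550 bases in raised genes and 21105 bases in genes not called. Lowered genes also had a higher GC content of the transcript, with a median of 53.4%, against 49.4% in raised genes, while the median transcript length was alike, at 3098 and 3129 bases.

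With genes ordered by median intron length and cut into 5 bins of equal size, the share of lowered genes fell along the order. In the bin of shortest introns (medians up to 525 bases) 45.7% of 2031 genes were lowered and 15% raised. In the bins that followed 21%, 13.5%, 13.1% and, in the longest, 11.1% were lowered, and 34.3% of the bin of longest introns were raised. The shares lowered in the bins of shortest and longest introns were 44.8% and 11.2% without library D of control siRNA, and 38.9% and 8.12% in DMSO, in libraries of their own. Leaving out the 3 interferon lists gave 45% in the bin of shortest introns. Genes with short introns were also more highly expressed, with a median level of 18.9 FPKM in that bin and 9.52 FPKM in the bin of longest introns. Within each of 5 bins of expression level the shortest introns again had the larger share lowered, from 41.4% against 9.76% lowered in the lowest bin to 58.3% against 11.2% in the next to highest and 33.5% against 10.9% in the highest. Across 10154 genes the log2 fold change and the median intron length had a Spearman's rho of 0.259 in tunicamycin and 0.281 in DMSO, given as a description across genes that share one annotation.

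**Figure D3:**
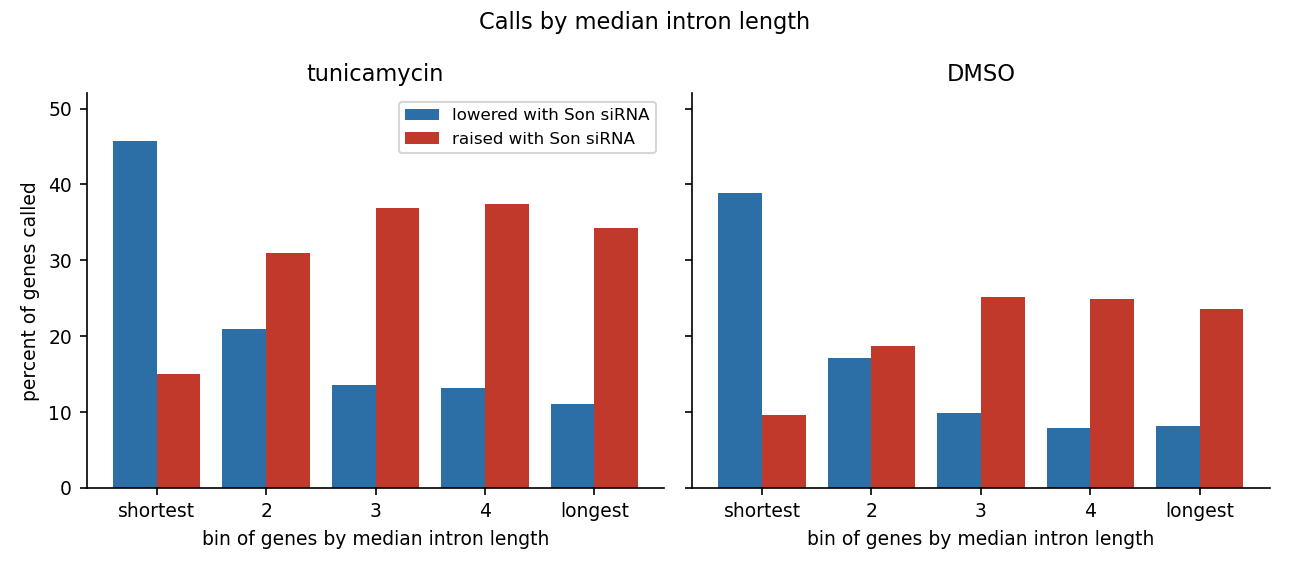
Percent of genes lowered (blue) and raised (red) with Son siRNA in 5 bins of genes by the median length of their introns, in tunicamycin (left) and in DMSO (right); each bin holds about 2030 genes. The share lowered is 45.7% in the bin of shortest introns and 11.1% in that of longest introns in tunicamycin.

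The named lowered genes had both short and long introns. The median intron measured 6739 bases in Iigp1, 3456 bases in Ifit3, 1927 bases in Cmpk2 and 1856 bases in Son. Vars, given below, has 30 exons and a median intron of 129 bases, Flna has 47 exons and 113.5 bases, and Agrn, given below, has 38 exons and 139 bases. Hsf1, the main transcription factor of the heat shock response, has a median intron of 229.5 bases and 5 introns under 150 bases, and had 27.7, 28.4, 28.2 and 27.2 FPKM with Son siRNA, against 47.2, 45.3, 47.02 and 45.6 FPKM with control siRNA (log2 fold change −0.71, SE 0.028, adjusted p = 3.43e-11). All 4 Son siRNA values of Hsf1 lay far below the control siRNA values. Among raised genes the median intron was 1184 bases in Tnfrsf9 and 1435.5 bases in Fbxo17, but 334 bases in Akap8l, so short introns also occur among genes that rose. Expression values per gene do not show whether introns were retained.

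Interferon effectors had the lowest median of all lists described here. Type I interferons signal through the kinases JAK1 and TYK2 to a complex of STAT proteins and IRF9, which binds interferon-stimulated response elements (ISRE) and raises antiviral effectors. The ISRE core was searched as GAAA, 2 bases and GAAA on both strands in the RefSeq promoter windows (250 bases before to 50 after each start, GRCm38.p6; the stretches printed end at or before the start). Windows were matched for 47 of 61 interferon effectors, of which 57.4% held a match, and for 8758 of all tested genes, of which 3.77% did. Counted by window, since a gene can have several, 3.44% of 32851 held a match. The stretches of Ifit3 (chr19:34583343-34583446, plus strand) and Isg15 (chr4:156200845-156200926, minus strand) are shown 5′ to 3′ on the gene's strand, as examples of windows with a match, in capitals. No match was found in the windows of Irf7 and Uba7, which also fell. The 2 matches of Ifit3 lie on the opposite strand and the 3 of Isg15 overlap each other.
Ifit3: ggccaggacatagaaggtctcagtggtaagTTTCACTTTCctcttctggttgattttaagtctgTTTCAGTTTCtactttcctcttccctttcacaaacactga
Isg15: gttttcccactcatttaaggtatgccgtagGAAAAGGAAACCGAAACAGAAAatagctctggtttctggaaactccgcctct

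Effectors fell nearly without exception. Of 61 tested interferon-stimulated effectors 59 were lowered and 1, Ifi27 (0.30), was raised, with a median of −0.58 (−0.62 without library D of control siRNA). Ifit3, an antiviral protein of the tetratricopeptide family, had 41.9, 33.4, 41.02 and 36.7 FPKM with Son siRNA, against 101, 80.7, 85.7 and 66.4 FPKM with control siRNA (log2 fold change −1.10, SE 0.13, adjusted p = 3.33e-06). Its near copy Ifit3b had 19.2, 16.1, 18.3 and 15.5 FPKM with Son siRNA, against 43.9, 35.9, 39.9 and 28.9 FPKM with control siRNA (−1.05, SE 0.12); reads of the 2 genes may have been split between them. Isg15, a ubiquitin-like modifier that is attached to proteins and is given for its promoter, had 289.9, 255, 277 and 261 FPKM with Son siRNA, against 486, 434, 456 and 409.5 FPKM with control siRNA (−0.72, SE 0.070). In all 3 genes library D was the lowest of the control siRNA libraries and still above every Son siRNA library.

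Among the other effectors named by rule was Uba7, the enzyme that activates ISG15. Uba7 had 4.18, 3.41, 4.02 and 3.55 FPKM with Son siRNA, against 10.5, 9.56, 10.3 and 7.86 FPKM with control siRNA (log2 fold change −1.14, SE 0.082, adjusted p = 1.39e-08). Usp18, which removes ISG15 and restrains interferon signalling, had 55.8, 49.9, 51.6 and 49.1 FPKM with Son siRNA, against 109, 90.3, 97.6 and 84.97 FPKM with control siRNA (−0.87, SE 0.087). Cmpk2, a mitochondrial nucleotide kinase induced by interferon, fell to 12.8 ± 1.22 FPKM with Son siRNA, against 26.01 ± 2.45 FPKM with control siRNA (−0.97, SE 0.087). Mx1, a dynamin-like GTPase that blocks viruses, fell to 3.64 ± 0.633 FPKM, against 7.56 ± 0.8695 FPKM (−0.89, SE 0.12), and Iigp1, a GTPase directed against vacuoles of intracellular parasites, to 3.82 ± 0.416 FPKM, against 8.34 ± 1.03 FPKM (−0.95, SE 0.10).

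Sensors and transcription factors of the pathway fell too, while its receptor chains and Jak1 did not. Of 30 genes of sensing and signalling 17 were lowered and 7 raised, with a median of −0.31 (−0.34 without library D of control siRNA). Dhx58, which encodes the RIG-I-like receptor LGP2, led the falls among the genes named by rule, with 11.6, 10.8, 11.5 and 9.99 FPKM with Son siRNA, against 31.01, 23.5, 28.5 and 22.99 FPKM with control siRNA (log2 fold change −1.19, SE 0.0996, adjusted p = 7.01e-08). Irf7, the transcription factor that amplifies type I interferon, had 44.2, 35.6, 40.95 and 31.6 FPKM with Son siRNA, against 84.1, 69.6, 78.1 and 62.5 FPKM with control siRNA (−0.93, SE 0.11). Stat2 fell to 21.96 ± 2.09 FPKM with Son siRNA, against 38.4 ± 3.95 FPKM with control siRNA (−0.78, SE 0.079), and Tlr3, the endosomal receptor of double-stranded RNA, to 2.62 ± 0.103 FPKM, against 5.34 ± 0.353 FPKM (−0.81, SE 0.059). Tyk2 (−0.68), Irf3 (−0.64) and Irf9 (−0.48) were lowered as well. The kinase gene Jak1 (0.12) and the inhibitor gene Socs3 (0.35; 0.23 without control siRNA library D) were raised. Of the receptor chain genes Ifnar2 was not called (0.062), and Ifnar1 was raised with all libraries (0.081; not called without library B, C or D of Son siRNA or A or B of control siRNA, at 0.061 to 0.086 and adjusted p up to 0.126).

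Genes of MHC class I presentation, which carry peptides to the cell surface, followed the effectors. Of 20 tested members 18 were lowered and none was raised by limma (0 at an unadjusted p under 0.05), with a median of −0.47 (−0.50 without library D of control siRNA). Tap1, a subunit of the peptide transporter into the ER, had 26.9, 22.2, 25.2 and 22.02 FPKM with Son siRNA, against 42.2, 38.7, 41.5 and 36.99 FPKM with control siRNA (log2 fold change −0.71, SE 0.078, adjusted p = 1.7e-06). The immunoproteasome subunit gene Psmb8 had 26.3, 21.3, 23.99 and 21.3 FPKM with Son siRNA, against 39.7, 34.6, 36.6 and 31.1 FPKM with control siRNA (−0.59, SE 0.083). H2-Q4 (−0.68, SE 0.080) and H2-T23 (−0.58, SE 0.089), both non-classical class I heavy chains with close relatives in the genome, fell in the same way. The 3 lists were lower in DMSO as well, with 57 effectors, 17 sensing genes and 18 class I genes called lowered there, and of the 3 lists only Tyk2 passed the test of the difference between conditions (−0.46 in DMSO, difference −0.22, adjusted p = 0.0249).

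**Figure D4:**
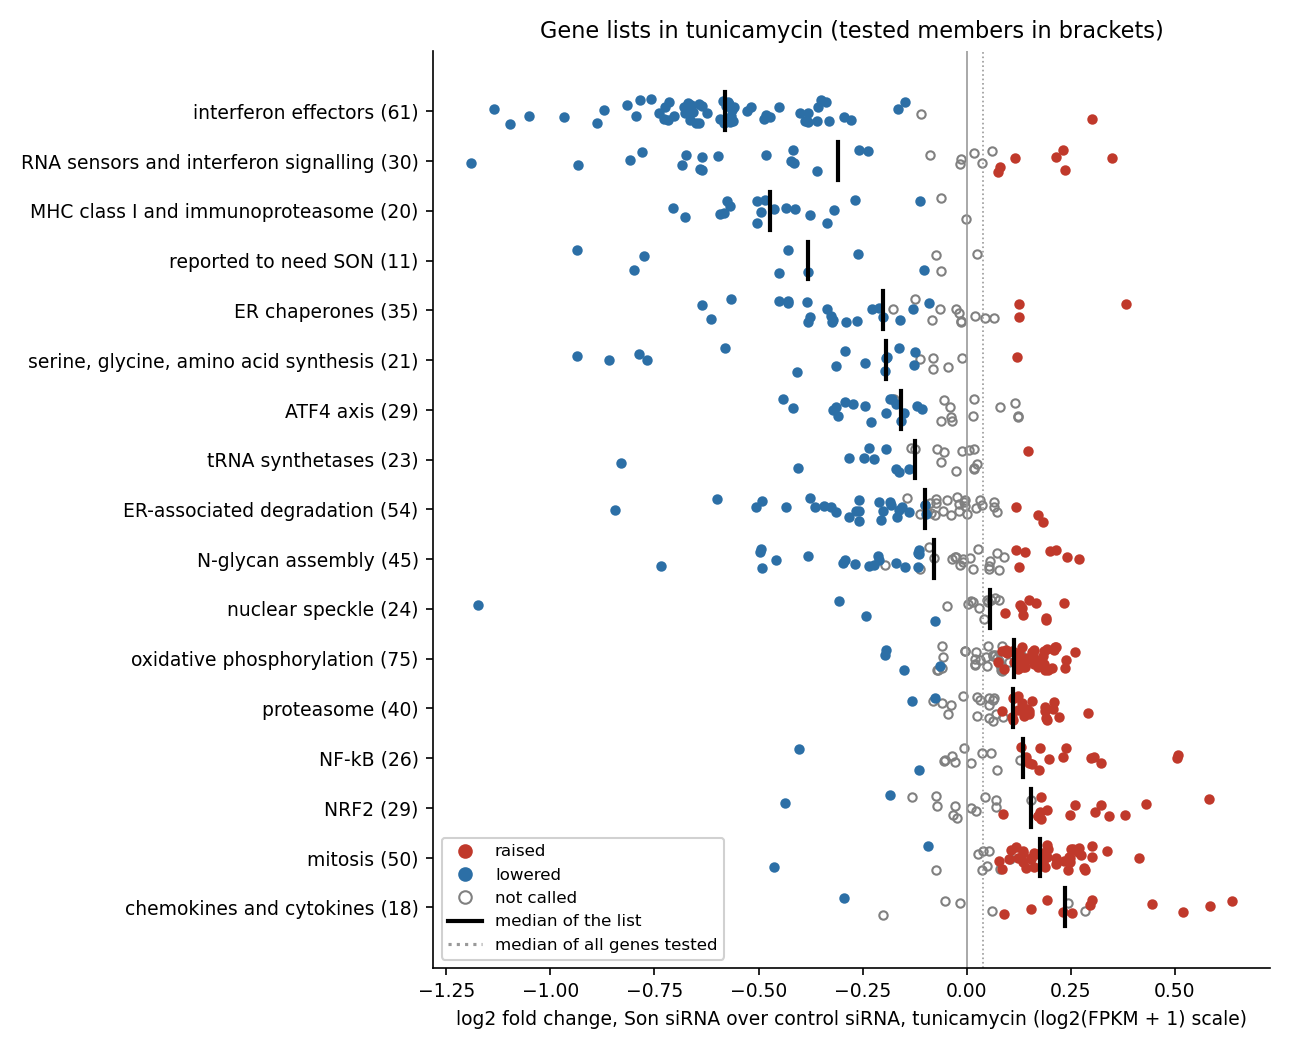
Log2 fold change in tunicamycin, Son siRNA over control siRNA, of every tested gene of 17 lists, with the number of tested genes in brackets. Filled points passed the test (red raised, blue lowered), open grey points did not, black bars are list medians and the dotted line is the median of all tested genes. By their medians, interferon effectors and MHC class I genes lie furthest to the left, followed by genes reported to need SON and by RNA sensors. The ER and amino acid lists lie between these and 0, and mitosis and chemokine genes to the right.

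Chaperones and folding enzymes of the ER were lower with Son siRNA. The ER stress response element, to which ATF6 and NF-Y bind, was searched as CCAAT, 9 bases and CCACG on both strands. It stood in the windows of 8 of 30 matched chaperone genes (26.7%) and of 15 of 8758 tested genes (0.171%). Stretches of 4 ER genes that fell are shown as above, with the match in capitals, for Creld2 (chr15:88819490-88819568, plus strand), Derl3 (chr10:75893212-75893290, plus strand), Hspa5 (chr2:34771995-34772073, plus strand) and Syvn1 (chr19:6046502-6046575, plus strand). No match was found in the windows of Sdf2l1, Dnajb9 and Fkbp11, which also fell. The match runs along the gene's strand in Hspa5 and Syvn1 and along the other strand in Creld2 and Derl3.
Creld2: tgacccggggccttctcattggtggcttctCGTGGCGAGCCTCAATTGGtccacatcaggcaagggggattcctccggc
Derl3: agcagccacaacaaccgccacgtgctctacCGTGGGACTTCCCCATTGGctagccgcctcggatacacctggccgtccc
Hspa5: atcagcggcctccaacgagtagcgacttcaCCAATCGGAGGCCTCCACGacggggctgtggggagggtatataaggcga
Syvn1: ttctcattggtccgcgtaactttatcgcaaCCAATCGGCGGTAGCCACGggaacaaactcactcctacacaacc

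Of 35 tested chaperones and folding enzymes 21 were lowered and 3 raised, with a median of −0.20. Without library D of control siRNA 20 were lowered and the median was −0.16. In DMSO 3 of the 35 were raised and 2 lowered, with a median of 0.0009. The test of the difference between conditions was passed by 4 of them with a negative and 0 with a positive sign. Fkbp11, a peptidyl-prolyl isomerase of secretory cells, had 43.4, 39.5, 39.1 and 43.3 FPKM with Son siRNA, against 61.6, 59.7, 57.6 and 82.8 FPKM with control siRNA (log2 fold change −0.64, SE 0.083, adjusted p = 9.88e-06; −0.52 without control siRNA library D). Dnajb9, the ERdj4 cochaperone that keeps IRE1 inactive, had 44.6, 40.5, 43.4 and 40.96 FPKM with Son siRNA, against 57.2, 56.99, 62.3 and 78.2 FPKM with control siRNA (−0.57, SE 0.072; −0.46 without that library). Sdf2l1, a cofactor of BiP, had 219, 208, 203 and 214 FPKM with Son siRNA, against 258, 263, 270.05 and 378 FPKM with control siRNA (−0.45, SE 0.088; −0.32 without that library). In each of these genes library D was the highest control siRNA library, and the other 3 control siRNA libraries still stood above all Son siRNA libraries. Hspa5, the chaperone BiP itself, had 3798, 3453, 3495 and 4127 FPKM with Son siRNA, against 4526, 4199, 4301 and 5677 FPKM with control siRNA (log2 fold change −0.32, SE 0.081, adjusted p = 0.00315; −0.23 without control siRNA library D, adjusted p = 0.00646). Hspa5 was thus lower in every Son siRNA library, by less than the 3 cochaperones and isomerases above. Its call was lost under quantile normalization (−0.15, adjusted p = 0.0676). Creld2, a chaperone-like protein secreted under ER stress, averaged 324 ± 11.2 FPKM with Son siRNA and 502 ± 98.4 FPKM with control siRNA (−0.61, SE 0.086; −0.49 without control siRNA library D). The 3 raised genes, named after their values were seen, were Tmem208 (0.38), Sdf2 (0.13; not called without library A, B or C of Son siRNA or B of control siRNA, at 0.093 to 0.13 and adjusted p up to 0.0968) and Dnajb2 (0.13; not called without library D of Son siRNA or B of control siRNA, at 0.10 and adjusted p up to 0.0537).

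Degradation of misfolded ER proteins, N-glycan assembly and transport from the ER were lower in part. Of 54 genes of ER translocation and degradation 26 were lowered and 3 raised, with a median of −0.10 (−0.084 without library D of control siRNA, with 5 raised). Derl3, a channel protein of this degradation that is switched on by ER stress, had 13.3, 13.6, 13.2 and 12.01 FPKM with Son siRNA, against 20.6, 20.8, 23.6 and 33.8 FPKM with control siRNA (log2 fold change −0.84, SE 0.11, adjusted p = 8.46e-06; −0.69 without control siRNA library D). Syvn1, the ubiquitin ligase HRD1, had 79.8, 79.8, 82.1 and 77.8 FPKM with Son siRNA, against 103, 105, 114 and 136 FPKM with control siRNA (−0.51, SE 0.062; −0.42). Ubxn6 (−0.60, SE 0.036) and Aup1 (−0.49, SE 0.039), which act with the segregase VCP and with the ligase complex, were also lowered in DMSO (−0.45 and −0.45). For N-glycan assembly 19 of 45 genes were lowered and 7 raised, with a median of −0.077 that moved to −0.013 without library D of control siRNA. Gmppb, which makes GDP-mannose, had 11.1, 11.6, 11.9 and 10.2 FPKM with Son siRNA, against 18.6, 18.4, 18.2 and 22.1 FPKM with control siRNA (−0.73, SE 0.057), and Ganab, the catalytic subunit of glucosidase II, had 66.1, 63.3, 66.3 and 63.8 FPKM with Son siRNA, against 93.8, 86.98, 92.4 and 93.6 FPKM with control siRNA (−0.49, SE 0.029). Dpagt1, the enzyme that tunicamycin inhibits, was not called (−0.015, adjusted p = 0.817). In ER to Golgi transport 21 of 49 genes were lowered and 8 raised (median −0.093, −0.046 without that library), among them the coatomer gene Copg1 with 48.8 ± 1.201 FPKM with Son siRNA and 66.5 ± 1.79 FPKM with control siRNA (−0.44, SE 0.029). In DMSO the medians were 0.0001 for translocation and degradation (4 raised, 8 lowered), 0.0155 for N-glycan assembly (7 and 9) and 0.030 for transport (7 and 9). The test of the difference between conditions was passed by 4, 0 and 2 genes of these lists with a negative sign, and by 0, 0 and 1 with a positive sign. Gmppb (−0.44), Ganab (−0.34) and Copg1 (−0.29) were lowered in DMSO too, while Derl3 (−0.25) and Syvn1 (−0.082) were not called there.

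Sensors and transcription factors of the stress response were lower in part. Ern1, the sensor IRE1, had 11.3, 11.2, 12.2 and 10.7 FPKM with Son siRNA, against 15.2, 15.1, 15.3 and 17.6 FPKM with control siRNA (log2 fold change −0.44, SE 0.051, adjusted p = 2.99e-06). Ddit3, which encodes CHOP, had 461, 423.7, 428 and 438 FPKM with Son siRNA, against 543, 521, 509.6 and 599 FPKM with control siRNA (−0.31, SE 0.066; −0.26 without control siRNA library D). Xbp1 had 98.96, 96.7, 97.7 and 101 FPKM with Son siRNA, against 109, 109, 107 and 116 FPKM with control siRNA (−0.15, SE 0.031), a total over its forms, since values per gene do not tell the spliced from the unspliced messenger RNA. The groups did not overlap for these 3 genes. Atf4 had 734, 693, 686 and 747 FPKM with Son siRNA, against 748, 705, 733 and 802 FPKM with control siRNA; its groups overlapped and it was not called (−0.062, adjusted p = 0.196). Trib3, a pseudokinase induced by ATF4 and CHOP, was not called either (−0.061, adjusted p = 0.227), except under quantile normalization (−0.10). Of 25 regulators 11 were lowered and 4 raised, with a median of −0.058 (−0.033 without library D and −0.089 without library B of control siRNA).

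Targets of ATF4 and CHOP were lower where they were called. Of 29 genes 17 were lowered and none was raised by limma (0 at an unadjusted p under 0.05, and 2 with array weights), with a median of −0.16, and without library D of control siRNA 11 were lowered (−0.12). Gpt2, the mitochondrial alanine transaminase, had 47.1, 46.2, 46.5 and 45.9 FPKM with Son siRNA, against 54.8, 55.3, 55.3 and 67.1 FPKM with control siRNA (−0.31, SE 0.053; −0.24 without that library). Library D stood alone in Gpt2, with the other 3 control siRNA libraries within 1 FPKM of each other. In DMSO 6 of the 29 targets were raised and 4 lowered, with a median of 0.025. The test of the difference between conditions was passed by 6 of them with a negative and 0 with a positive sign. The C/EBP-ATF response element, searched as TGATG, 1 base and AA on both strands, stood in the windows of 7 of 25 matched genes of this list, of 5 of 16 tRNA synthetase genes and of 2.53% of tested genes with a window.

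Genes of amino acid synthesis were lower, while amino acid transporters moved in both directions, as did all tested genes (30.6% raised and 20.4% lowered). In the synthesis of serine, one-carbon units, proline and asparagine 15 of 21 genes were lowered and 1, Mthfd1 (0.12; not called without library A or D of Son siRNA or B or C of control siRNA, at 0.095 to 0.12 and adjusted p up to 0.0914), was raised, with a median of −0.19 (−0.12 without library D of control siRNA). Pck2, the mitochondrial phosphoenolpyruvate carboxykinase, which is also on the list of genes reported to need SON, had 44.9, 43.4, 45.1 and 41.7 FPKM with Son siRNA, against 81.3, 79.04, 83.2 and 95.7 FPKM with control siRNA (log2 fold change −0.94, SE 0.049, adjusted p = 6.29e-10). Shmt2, the mitochondrial serine hydroxymethyltransferase, had 157, 148, 153 and 148 FPKM with Son siRNA, against 244, 237, 253 and 307 FPKM with control siRNA (−0.77, SE 0.060). Bcat2, the mitochondrial transaminase of branched-chain amino acids, had 16.6, 16.2, 18.1 and 15.1 FPKM with Son siRNA, against 27.8, 27.6, 29.3 and 31.9 FPKM with control siRNA (−0.79, SE 0.060). Pycr1, the last enzyme of proline synthesis, had 3.14, 2.84, 3.02 and 2.64 FPKM with Son siRNA, against 5.89, 4.901, 5.68 and 8.28 FPKM with control siRNA (−0.86, SE 0.095; −0.73 without library D). None of the 4 overlapped between groups. All 4 were also lowered in DMSO (Pck2 −0.74, Shmt2 −0.67, Bcat2 −0.28 and Pycr1 −0.30). Of the 21 synthesis genes 10 were lowered and 0 raised in DMSO, with a median of −0.14. The test of the difference between conditions was passed by 3 of them, with a negative sign. Among amino acid transporters 7 of 22 were lowered and 6 raised (median 0.028, 0.039 without library D of control siRNA). Slc7a5, the leucine transporter LAT1, had 119, 118, 113 and 113 FPKM with Son siRNA, against 171, 172, 174 and 217 FPKM with control siRNA (−0.65, SE 0.069), and Slc6a9, a glycine transporter, had 67.7, 66.6, 67.97 and 65.3 FPKM with Son siRNA, against 86.7, 87.97, 91.6 and 119 FPKM with control siRNA (−0.51, SE 0.074; −0.40 without library D). Both transporters were lowered in DMSO as well (−0.63 and −0.27).

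Vars, the valyl-tRNA synthetase, stood out among the enzymes that charge tRNAs. Vars had 45.7, 46.4, 46.1 and 44.5 FPKM with Son siRNA, against 80.01, 76.3, 80.6 and 91.8 FPKM with control siRNA (log2 fold change −0.83, SE 0.044, adjusted p = 7.63e-10), and in DMSO 33.5 ± 1.03 FPKM with Son siRNA and 57.8 ± 2.17 FPKM with control siRNA (−0.77). Qars, the glutaminyl-tRNA synthetase, fell less (−0.40, SE 0.032), as did Yars (−0.28) and Aars (−0.25). Of 23 synthetases and their partners 10 were lowered and 1, Aimp2 (0.15), was raised. Their median of −0.12 was −0.017 without library D of control siRNA.

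Mitotic genes were higher with Son siRNA. Of 50 genes of mitosis and the transition into it 40 were raised and 2 lowered, with a median of 0.18 (0.16 without library D of control siRNA). In DMSO 13 of them were raised and 2 lowered, with a median of 0.071. The test of the difference between conditions was passed by only 1 of the 50, with a positive sign. Nuf2, a kinetochore protein, had 31.3, 31.004, 32.8 and 36.2 FPKM with Son siRNA, against 25.5, 25.97, 24.7 and 21.4 FPKM with control siRNA (log2 fold change 0.41, SE 0.058, adjusted p = 2e-05). Bub1, a kinase of the spindle checkpoint, had 17.2, 17.6, 17.3 and 18.7 FPKM with Son siRNA, against 13.99, 13.9, 14.1 and 13.2 FPKM with control siRNA (0.34, SE 0.035), and Mki67, the proliferation marker Ki-67, had 29.96, 29.5, 31.95 and 30.2 FPKM with Son siRNA, against 24.8, 26.04, 25.3 and 21.95 FPKM with control siRNA (0.30, SE 0.050). The groups did not overlap for any of the 3. Cdc25b, a phosphatase that activates CDK1 on the way into mitosis, went the other way, with 16.8, 18.4, 17.2 and 16.3 FPKM with Son siRNA, against 23.9, 23.9, 25.5 and 22.8 FPKM with control siRNA (−0.46, SE 0.036); the other lowered gene, Incenp (−0.092), was not called without library B or C of Son siRNA or A or C of control siRNA, at −0.095 to −0.069 and adjusted p up to 0.117. The cell cycle genes homology region, searched as TTTGAA on both strands, stood in 32 of 43 mitosis gene windows (74.4%), in 6 of 42 replication gene windows (14.3%) and in 14.0% of tested genes with a window.

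DNA replication genes moved in both directions, as did all tested genes (30.6% raised and 20.4% lowered). Of 52 genes 20 were raised and 12 lowered (median 0.043). Pold1, the catalytic subunit of DNA polymerase delta, had 15.4, 16.6, 16.1 and 13.7 FPKM with Son siRNA, against 25.1, 25.3, 26.5 and 25.1 FPKM with control siRNA (log2 fold change −0.69, SE 0.047, adjusted p = 7.43e-09). Uhrf1, which couples replication to DNA methylation, fell to 61.9 ± 2.23 FPKM with Son siRNA, against 80.8 ± 5.51 FPKM with control siRNA (−0.38, SE 0.042). E2f2, a transcription factor of S phase entry, rose to 3.62 ± 0.0976 FPKM, against 2.26 ± 0.0768 FPKM (0.50, SE 0.043), and Ccne2, cyclin E2, to 13.6 ± 0.642 FPKM, against 10.3 ± 0.534 FPKM (0.38, SE 0.039). Replication genes thus moved one by one, in both directions, and no common shift was seen.

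Inhibitors and drivers of the cell cycle, p53 targets and the BCL2 family moved in both directions, as did all tested genes (30.6% raised and 20.4% lowered). Of 16 genes of cyclin D, its kinases and their inhibitors 7 were raised and 3 lowered. Cdkn1a, the p53-induced cell cycle inhibitor p21, had 58.3, 57.4, 64.7 and 50.8 FPKM with Son siRNA, against 75.8, 79.5, 79.2 and 82.3 FPKM with control siRNA (−0.45, SE 0.071). Ccnd1, cyclin D1, had 18.1, 18.5, 16.3 and 20.7 FPKM with Son siRNA, against 14.03, 11.7, 12.9 and 11.2 FPKM with control siRNA (0.53, SE 0.11). The inhibitor was lower and the cyclin higher in every Son siRNA library than in any control siRNA library. Among p53 targets 11 of 32 were lowered and 7 raised; Ccng2, a cyclin linked to arrest, fell (−0.40) and Fas, the death receptor, rose (0.46). In the BCL2 family Bcl2l2, a protective member, fell to 8.57 ± 0.184 FPKM, against 12.9 ± 0.885 FPKM (−0.54, SE 0.043), and Bcl2l11, the killer protein BIM, rose to 6.39 ± 0.494 FPKM, against 5.31 ± 0.147 FPKM (0.23, SE 0.049), with 5 raised and 4 lowered of 16.

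Genes of NF-κB signalling were higher. NF-κB factors are held in the cytoplasm by IκB proteins, which the IKK kinases mark for destruction. Of 26 subunits, regulators and targets 14 were raised and 2, Ikbkb and Nfkbie, lowered (Nfkbie at −0.11; not called without library A or D of Son siRNA or B or C of control siRNA, at −0.11 to −0.080 and adjusted p up to 0.0984), with a median of 0.14. Traf1, an adaptor of TNF receptors, had 11.5, 11.7, 10.4 and 13.6 FPKM with Son siRNA, against 8.04, 7.31, 8.28 and 8.31 FPKM with control siRNA (log2 fold change 0.51, SE 0.061, adjusted p = 4.13e-06). Vcam1, an adhesion molecule for leukocytes, had 21.4, 22.9, 21.6 and 25.1 FPKM with Son siRNA, against 15.5, 15.5, 16.2 and 15.5 FPKM with control siRNA (0.51, SE 0.048), and Birc3, an inhibitor of apoptosis that NF-κB induces, had 6.9999, 6.28, 6.59 and 6.81 FPKM with Son siRNA, against 5.07, 5.17, 5.18 and 5.098 FPKM with control siRNA (0.32, SE 0.036). The kinase gene Ikbkb went the other way, with 12.3, 12.7, 12.7 and 12.97 FPKM with Son siRNA, against 16.6, 17.2, 17.8 and 16.8 FPKM with control siRNA (−0.40, SE 0.031). In these 4 genes the groups did not overlap.

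Most chemokine and cytokine genes rose. Of 18 chemokines and cytokines 11 were raised and 1, the interferon-induced Cxcl10 (−0.29), was lowered, with a median of 0.24 (0.15 without library D of control siRNA). In DMSO 4 of them were raised and 2 lowered, with a median of 0.015, and the test of the difference between conditions was passed by 0 of the 18. Cx3cl1, the membrane-bound chemokine fractalkine, had 39.3, 43.5, 42.99 and 41.2 FPKM with Son siRNA, against 29.7, 27.7, 31.1 and 26.9 FPKM with control siRNA (0.52, SE 0.040). Ccl2, which draws monocytes, had 201, 192, 203 and 199.9 FPKM with Son siRNA, against 159, 146, 165 and 119 FPKM with control siRNA (0.45, SE 0.071; 0.35 without library D), and Cxcl12, the ligand of CXCR4, had 3.47, 3.92, 3.32 and 3.29 FPKM with Son siRNA, against 2.56, 1.903, 1.91 and 1.32 FPKM with control siRNA (0.64, SE 0.11; 0.53). In the TNF receptor family 4 of 12 genes were raised and 4 lowered, so the rise of Tnfrsf9 was not shared across it.

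Mitochondrial energy genes and the proteasome were slightly higher as groups. Of 75 nuclear genes of the respiratory chain and ATP synthase 43 were raised and 4 lowered, with a median of 0.11, which was 0.062 with the trend on transcript length removed. Ndufv2, a subunit of complex I, had 50.03, 46.9, 47.4 and 48.3 FPKM with Son siRNA, against 39.7, 39.1, 42.5 and 41.5 FPKM with control siRNA (log2 fold change 0.24, SE 0.038, adjusted p = 7.09e-05), and Cox7b, a subunit of complex IV, had 80.3, 82.2, 85.7 and 85.8 FPKM with Son siRNA, against 70.7, 69.6, 68.4 and 74.5 FPKM with control siRNA (0.24, SE 0.032). Both genes had groups that did not overlap. The lowered genes included Ndufa13 (−0.20), Atp5d (−0.19) and Ndufb7 (−0.15), named after their values were seen, and 8 were lowered with the length trend removed. The TCA cycle was divided, with 15 of 33 raised and 6 lowered, Idh2 and Pck2 among the lowered; Dld, the shared dehydrogenase of the 2-oxo acid complexes, fell to 54.3 ± 1.95 FPKM with Son siRNA, against 73.5 ± 7.05 FPKM with control siRNA (−0.43, SE 0.049). Of 40 proteasome genes 22 were raised and 2 lowered (median 0.11; 5 lowered with median-ratio scaling), led by the assembly factor Psmg3 (0.29, SE 0.051) and the subunit Psmd1 (0.22, SE 0.029). Ribosomal protein genes, in contrast, gave no firm direction. Mitochondrial ribosomal proteins had 30 raised and 10 lowered of 77 (median 0.054; 0.029 with the length trend removed, 0.030 by median-ratio scaling). Cytosolic ribosomal proteins had 12 raised and 5 lowered of 79, but 2 and 12 after the length correction, 4 and 10 by median-ratio scaling, and 21 and 1 without library D of control siRNA. Eef1d, a guanine nucleotide exchange factor of translation elongation, had 91.7, 93.4, 94.4 and 95.9 FPKM with Son siRNA, against 149, 132, 142 and 150.05 FPKM with control siRNA (−0.60, SE 0.045), within a list of translation factors of which 12 were raised and 7 lowered of 47.

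Antioxidant genes under NRF2, the factor that KEAP1 holds back, were higher in part. Of 29 genes 15 were raised and 2 lowered, with a median of 0.15. Nqo1, a quinone reductase, had 50.8, 49.3, 45.4 and 50.4 FPKM with Son siRNA, against 29.7, 36.8, 31.9 and 31.4 FPKM with control siRNA (log2 fold change 0.58, SE 0.061, adjusted p = 8.71e-07), and Gstm1, a glutathione transferase, had 68.7, 69.7, 69.8 and 70.8 FPKM with Son siRNA, against 51.7, 49.8, 57.7 and 47.2 FPKM with control siRNA (0.43, SE 0.049). G6pdx, which makes NADPH in the pentose phosphate pathway, had 38.5, 38.05, 37.97 and 37.98 FPKM with Son siRNA, against 51.4, 53.3, 53.4 and 49.7 FPKM with control siRNA (−0.44, SE 0.027), lower in every Son siRNA library. The 2 enzymes and the glucose 6-phosphate dehydrogenase thus moved in opposite directions, all without overlap of the groups.

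Lysosomal, autophagy and lipid genes moved in both directions, as did all tested genes, of which 30.6% were raised and 20.4% lowered. Of 58 lysosomal genes 23 were raised and 18 lowered. Man2b1, the lysosomal alpha-mannosidase, had 16.1, 15.9, 17.04 and 14.5 FPKM with Son siRNA, against 22.5, 20.9, 22.2 and 21.2 FPKM with control siRNA (−0.43, SE 0.042). Of 38 autophagy genes 14 were raised (9 without library A of Son siRNA) and 8 lowered. Becn1, a core protein of the lipid kinase that starts autophagosomes, had 37.6, 37.6, 37.5 and 38.4 FPKM with Son siRNA, against 49.2, 49.1, 49.1 and 50.95 FPKM with control siRNA (−0.38, SE 0.024). Neither gene overlapped between groups. Of 43 heat shock genes 10 were raised (6 without library B of control siRNA, without library A of Son siRNA or with median-ratio scaling) and 3, Hsf1, Lonp1 (−0.50) and Bag5 (−0.36), were lowered. In sterol and fatty acid synthesis 9 were raised and 8 lowered of 35; Srebf1, the factor of fatty acid synthesis, fell (−0.38, SE 0.050), as did its escort Scap (−0.36, SE 0.045) and the desaturase Fads2 (−0.62, SE 0.046). Slc2a1, the glucose transporter GLUT1, fell to 52.98 ± 2.15 FPKM with Son siRNA, against 70.01 ± 2.12 FPKM with control siRNA (−0.40, SE 0.048), while 8 of 33 genes of glycolysis and hypoxia were raised and 2, Slc2a1 and Kdm3a, lowered, their median of 0.098 being 0.025 without library D of control siRNA.

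Matrix and cytoskeleton genes, by which fibroblasts are known, changed gene by gene, while 30.6% of all tested genes were raised and 20.4% lowered. Nid1, the basement membrane linker nidogen, had 34.3, 35.9, 36.2 and 33.2 FPKM with Son siRNA, against 21.9, 23.2, 22.8 and 16.4 FPKM with control siRNA (log2 fold change 0.71, SE 0.073, adjusted p = 6.71e-07; 0.60 without control siRNA library D). Agrn, the heparan sulfate proteoglycan agrin, had 18.3, 18.1, 18.5 and 15.4 FPKM with Son siRNA, against 31.1, 29.1, 31.3 and 26.2 FPKM with control siRNA (−0.71, SE 0.062), and Ltbp3, which holds latent TGF-β, had 39.5, 42.5, 44.1 and 38.6 FPKM with Son siRNA, against 58.2, 58.9, 61.9 and 59.3 FPKM with control siRNA (−0.52, SE 0.041). Of 38 matrix glycoproteins 16 were raised and 9 lowered, with a median of 0.081 (0.028 without library D). In Nid1 library D was the lowest control siRNA library, and the other 3 still lay below all Son siRNA libraries. Of 18 collagen genes 7 were raised and 1, Col5a3 (−0.17), was lowered; 4 were raised without library D of control siRNA, 4 without its library B and 4 without library B of Son siRNA. Matrix proteases and their inhibitors had 8 raised and 2 lowered of 16, and the enzymes that cross-link and process collagen 5 raised and 9 lowered of 19. Among contractile and adhesion genes 12 of 31 were raised and 6 lowered, with Flna, Cnn2 (−0.40, SE 0.046) and Zyx (−0.32, SE 0.029) lowered furthest and Itgb3, an integrin subunit, raised furthest (0.38, SE 0.080).

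A difference between the effect of Son siRNA in tunicamycin and that in DMSO was called for 183 of 10883 genes (1.68%), 90 positive (0.827%) and 93 negative (0.855%). With single libraries left out this count ran from 24 where library B of the Son siRNA cells in DMSO was omitted, to 313, where library B of the control siRNA cells in DMSO was omitted. Of the 9 genes given here, Oaf, Gdnf and Bcat2 were called in each of the 16 fits that left out 1 library and in the 11 other alternatives.

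Oaf was raised in tunicamycin and not called in DMSO. Oaf, a secreted protein, had 8.82, 9.44, 9.44 and 8.64 FPKM with Son siRNA, against 6.296, 5.45, 6.22 and 4.802 FPKM with control siRNA, and in DMSO 27.9, 25.6, 26.8 and 25.7 FPKM with Son siRNA, against 25.9, 24.9, 25.4 and 25.8 FPKM with control siRNA (difference 0.54, SE 0.081, adjusted p = 0.0141). Oaf stood lower in tunicamycin than in DMSO, where its groups overlapped. Gdnf, a neurotrophic factor, had 7.29, 7.11, 7.16 and 8.17 FPKM with Son siRNA, against 6.405, 6.33, 6.61 and 6.07 FPKM with control siRNA, and in DMSO 7.14, 6.02, 6.21 and 6.24 FPKM with Son siRNA, against 8.56, 7.58, 7.52 and 7.38 FPKM with control siRNA (0.20 in tunicamycin, −0.24 in DMSO, difference adjusted p = 0.0187). The rise of Gdnf in tunicamycin was not called without both D libraries (0.14, adjusted p = 0.0583). Bcat2 was lowered in both conditions, by more in tunicamycin (−0.79) than in DMSO (−0.28; difference −0.51, SE 0.085, adjusted p = 0.0187).

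The other 6 differences were called with all libraries but lost in some of the 16 fits. Nid1 (0.53) lost the call in 5 fits, and its difference ran from 0.42 to 0.57 over all 16. Over the same 16 fits Ero1lb, an ER oxidase (−0.47; −0.51 to −0.39), lost the call in 6 and Ccnd1 (0.76; 0.64 to 0.86) in 8. Mtm1, a phosphoinositide phosphatase (−0.49; −0.54 to −0.39), lost it in 9, Prg4, which encodes lubricin (−0.53; −0.62 to −0.42), in 11, and Pycr1 (−0.56; −0.64 to −0.43) in 14. No difference changed its sign in these fits. ER stress genes that tunicamycin switches on were among the negative differences, with Dnajb9 at −0.47 (adjusted p = 0.0329), Syvn1 at −0.42 (0.0295), Ern1 at −0.35 (0.0295) and Gpt2 at −0.32 (0.0433), each lost in 9 to 11 of the 16 fits. In DMSO these 4 genes stood at 6.22 ± 0.216, 19.8 ± 0.258, 7.98 ± 0.2997 and 6.59 ± 0.166 FPKM with Son siRNA, and at 6.73 ± 0.264, 21.03 ± 0.9997, 8.58 ± 0.522 and 6.58 ± 0.428 FPKM with control siRNA, and none was called there.

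**Figure D5:**
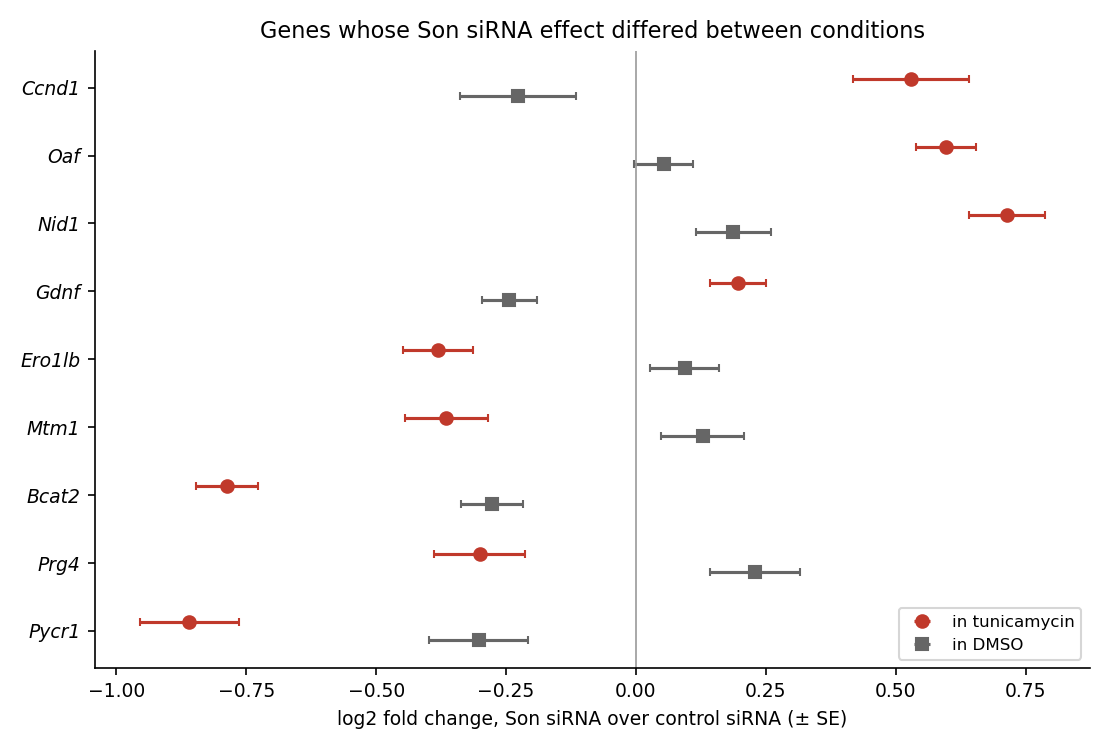
Log2 fold change with Son siRNA over control siRNA in tunicamycin (red circles) and in DMSO (grey squares), with SE, for 4 positive and 5 negative differences. Oaf stands at 0.60 in tunicamycin and 0.053 in DMSO, and Ccnd1 at 0.53 and −0.23.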

How the data were processed

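Polyadenylated RNA of MEF was sequenced with a stranded kit, per the labels' protocols, and the submitters' processing notes name Trimmomatic, Trim Galore, HISAT2, Salmon, Cufflinks and the build mm10, without versions. The authors deposited FPKM values per gene. The low FPKM values were not whole multiples of a read, so counts were not recovered, depth is unknown and no count test was run. Of 28 library columns 16 were used, and 12 of other experiments were not. Of 24886 lines, 27 had a date in place of a symbol (17 with a mean of at least 1 FPKM) and were left out, and for 275 symbols on several lines the line with the highest mean was kept. Columns carry the letters A to D, so libraries are named by letter.

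Genes with a mean of at least 1 FPKM over the 16 siRNA libraries were fitted on log2(FPKM + 1) with limma 3.58.1 in R 4.3.3, with 1 term for each of the 4 groups and a moderated variance that follows the mean level. P-values were adjusted by Benjamini-Hochberg over all genes and called at 0.05. The contrasts were Son siRNA against control siRNA in tunicamycin, the same in DMSO, and their difference. The fit was tested on simulated data. Gene lists are described by counts and medians, with no test of a list.

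Genes were named by rule, namely Son, the 15 strongest rises and 15 strongest falls at 5 FPKM or more in the higher group with no overlap and a call in each fit that left out a tunicamycin library, up to 4 called genes of largest change per list, the 5 largest differences each way, and Hspa5, Ddit3, Atf4, Xbp1, Trib3, Neat1, Malat1, Pck2, Idh2, Cdkn1a and Srrm2. Some genes that the rule covers are not reported here. Other genes, such as Isg15, Tyk2 and those beside counts of 5 or fewer, were named after their values were seen. The members and lists were chosen with earlier results of these data known. Coordinates and introns come from GENCODE vM21 by symbol (10468 of 10883 tested genes matched), promoters from RefSeq. Alternatives were another pseudocount, filter, scaling or weighting, a length correction, a replicate block and each library left out. Leaving out both D libraries was chosen after seeing the data.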

Additional observations from a re-analysis of the deposited data

Results flagged for a closer look

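A library is given here where its distance to the nearest of the other 3 libraries of its group was a larger part of the group's whole range than Dixon's 95% critical value for 4 samples, which chance alone gives in about 1 of 20 groups. Over all tested genes this held for 5.13% with Son siRNA and 7.28% with control siRNA. Of the 558 such genes of Son siRNA 239 had library D apart, and of the 792 of control siRNA 468 had library D apart. Among the Son siRNA libraries D stood apart, with this share of the range, for Agrn (lowest, 0.866), Atp5d (lowest, 0.846), Becn1 (highest, 0.891), Gdnf (highest, 0.838), Irf3 (lowest, 0.842) and Tyk2 (lowest, 0.954), and libraries A to C for Batf3 (library B lowest, 0.835), Ctgf (library C highest, 0.945), Fnbp4 (library B lowest, 0.908), G6pdx (library A highest, 0.853), Hebp1 (library C lowest, 0.864), Prg4 (library C highest, 0.891), Pspc1 (library C highest, 0.833), Srsf4 (library B highest, 0.911), Taz (library B highest, 0.857) and Tmem208 (library B lowest, 0.904). Library D of control siRNA was the highest for Becn1 (0.957), Creld2 (0.855), Ddx39b (0.925), Ern1 (0.935), Fkbp11 (0.844), Gmppb (0.889), Gpt2 (0.959), Mtm1 (0.920), Sdf2l1 (0.899), Slc6a9 (0.847), Slc7a5 (0.937) and Yars (0.863). It was the lowest for Angptl2 (0.878), Ccng2 (0.838), Irf9 (0.855) and Socs3 (0.890). Other libraries of control siRNA stood apart for Pold1 (library C highest, 0.854), Sdf2 (library B lowest, 0.928), Taz (library B lowest, 0.945) and Vcam1 (library C highest, 0.949).

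The effect of Son siRNA differed between tunicamycin and DMSO, by limma's test of the difference with an adjusted p under 0.05, for 18 genes named here. It was higher in tunicamycin by a log2 difference of 0.76 for Ccnd1, 0.24 for Ccne2, 0.33 for Dyrk3, 0.44 for Gdnf, 0.53 for Nid1, 0.54 for Oaf and 0.18 for Psmd1. It was lower in tunicamycin by −0.51 for Bcat2, −0.47 for Dnajb9, −0.35 for Ern1, −0.47 for Ero1lb, −0.32 for Gpt2, −0.49 for Mtm1, −0.53 for Prg4, −0.56 for Pycr1, −0.30 for Slc2a1, −0.42 for Syvn1 and −0.22 for Tyk2. Leaving out single libraries kept all 16 calls for Bcat2, Gdnf and Oaf, and lost some for the others.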

How the results depend on the processing

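The number of genes called in tunicamycin stayed within 1.5 times of 5552, from 4855 to 5782 over 12 alternatives and 5042 to 5599 with single libraries left out. The 12 include leaving out both D libraries, which was chosen after seeing the data. The number called at 2-fold or more was 29 with a pseudocount of 0.1, against 11, and 8 to 13 with single libraries left out. The number of differences between the effects in tunicamycin and in DMSO was least stable. Against 183, it was 386 with array weights, 284 with the length trend removed, 299 with median-ratio scaling, 313 with quantile normalization, 62 with no filter, where more genes were tested, and 24 to 313 with single libraries left out. Whether the same letters mark paired samples was not settled. Deviations of same-letter libraries correlated at −0.043, 0.17, 0.13 and 0.086, and those of different letters at −0.14 to 0.11. Not every library correlated best with its own letter. With a replicate block by letter 5744 genes were called in tunicamycin and 285 differences. Among 169 genes named, 153 kept their direction and their side of the threshold in tunicamycin in every alternative. The sign turned, without a call, for Dpagt1 (−0.050 to 0.020 with single libraries left out, 0.020 with array weights and 0.026 with both D libraries in tunicamycin left out) and Psmd3 (−0.0002 with median-ratio scaling and −0.0003 with quantile normalization). The cause of these changes was not tested. Without library D of control siRNA the medians of the ER and amino acid synthesis lists moved towards 0 and those of the 3 interferon lists away from it, as given beside each. FPKM hold no depth, so the counting error of low genes is unknown. Values per gene show neither splice forms nor retained introns.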

Other observations

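Genes outside the lists above that a fibroblast uses to answer its surroundings moved in both directions, as did all tested genes (30.6% raised and 20.4% lowered). Among AP-1, EGR and Myc factors 10 of 24 genes were raised and 3 lowered, with a median log2 fold change of 0.099 (0.065 without library D of control siRNA). The AP-1 genes Fosl2 (0.30; 0.19 without library D of control siRNA, with groups that overlap), Junb (0.30) and Jun (0.28) were raised, and Batf3, which pairs with JUN proteins, had 3.93, 3.52, 3.96 and 4.01 FPKM with Son siRNA, against 6.44, 5.46, 5.87 and 5.67 FPKM with control siRNA (log2 fold change −0.50, SE 0.058, adjusted p = 2.8e-06). Among YAP and TAZ regulators and targets 8 of 23 genes were raised and 1 lowered. Ctgf, a matricellular protein and a known target of the coactivators YAP and TAZ, had 11.8, 11.8, 12.8 and 11.8 FPKM with Son siRNA, against 10.1, 9.26, 10.1 and 5.84 FPKM with control siRNA (0.44, SE 0.11; 0.27 without library D of control siRNA), while the receptor tyrosine kinase gene Axl, the lowered gene of this list, had 80.1, 80.8, 81.8 and 81.4 FPKM with Son siRNA, against 103, 100.1, 103 and 95.9 FPKM with control siRNA (−0.31, SE 0.027). The groups did not overlap for Batf3, Ctgf and Axl.

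Secreted proteases and complement genes moved apart from one another. The metalloproteinase genes Mmp3 (0.41) and Mmp9 (0.40) were raised, and Mmp23 had 0.927, 1.18, 1.06 and 0.741 FPKM with Son siRNA, against 2.13, 2.52, 1.68 and 2.08 FPKM with control siRNA (−0.65, SE 0.087). Of 12 complement and acute phase genes 2 were raised and 2 lowered, while 30.6% of all tested genes were raised and 20.4% lowered. C2, a protease of the classical pathway, fell to 9.36 ± 0.982 FPKM with Son siRNA, against 14.3 ± 1.93 FPKM with control siRNA (−0.55, SE 0.084), and Serpina3g, a serine protease inhibitor from a family of close copies, rose to 1.58 ± 0.123 FPKM, against 0.487 ± 0.158 FPKM (0.80, SE 0.078).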
